A study of Mus musculus with 5 samples.

Results

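Amino acids, sugars, lactate and water-soluble vitamins do not cross cell membranes unaided, and solute carrier (Slc) proteins move them in and out. Endothelial cells, which line blood vessels, use such carriers for their own metabolism and to pass nutrients from blood to tissue. This report describes the members of the Slc1, Slc2, Slc3, Slc6, Slc7, Slc16, Slc19, Slc38 and Slc43 families on arrays of sorted mouse thymic endothelial cells. Members were all probe sets (groups of probes for one transcript) to which the platform annotation gave 1 gene symbol of these families. There were 95 such probe sets, covering 61 genes, among 22626 probe sets in all. The rule itself used names only and no measured value, although the families were picked with earlier results of these data known. Of the 61 genes, 42 had 1 probe set and 19 had several, and probe sets of one gene share its RNA and are not independent.

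The series held 5 Affymetrix expression arrays of female C57BL/6J mice aged 6 to 8 weeks. In the first group, 2 arrays, mice had received sublethal total body irradiation (SL-TBI) of 550 cGy from a cesium source, without hematopoietic rescue, and thymi were taken 4 days later. In the second group, 3 arrays, mice were untreated and are called day 0. For both groups the protocol gave depletion of CD45-positive blood cells and a flow sort for VE-cadherin-positive cells that lacked CD45 and EpCAM, and each array held the cells of several pooled mice. The cell type label read CD45-negative stromal cells for day 4 and thymic endothelial cells for day 0. Values are log2 GCRMA expression, so a difference of 1 is a doubling of signal.

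On the arrays, 10 of 10 endothelial markers, such as Cdh5 and Pecam1, had group means above 4 in both groups. At day 4 they averaged 9.90 and 10.14 per array, and at day 0 they averaged 10.07, 10.06 and 10.21. The limma test called 0 of the 10, and 1 had an unadjusted p under 0.05. On non-overlapping arrays 3 of them (Cdh5, Emcn and Tek) were lower at day 4 and 1 was higher. Markers of several other cell types moved with the groups, while those of fibroblasts and pericytes were high in both. Fibroblast markers averaged 9.01 and 8.60 at day 4 and 8.86, 8.84 and 8.60 at day 0. Pericyte and smooth muscle markers averaged 8.67 and 8.54 against 8.62, 8.70 and 8.53. On non-overlapping arrays 1 of 6 fibroblast markers was lower and 1 higher, and 1 of 7 pericyte and smooth muscle markers was lower. For 15 of 16 macrophage markers, day 4 lay above day 0, with mean levels of 7.66 and 7.48 at day 4 and 6.47, 5.56 and 5.76 at day 0. For 9 of 12 thymocyte markers day 4 lay below day 0, with mean levels of 4.02 and 3.94 against 5.95, 5.22 and 5.73. Lower at day 4 on non-overlapping arrays were also 4 of 4 B cell, 4 of 7 neutrophil and 3 of 4 erythroid markers. The same held for 2 of 7 thymic epithelial markers, while 1 neutrophil marker, Ltf, was higher. Beside each of these counts stands the share of all probe sets tested, 20.7% lower and 18.9% higher in this way. Many of these values were low. Group means above 4 were held by 0 B cell, 0 erythroid and 1 neutrophil markers at day 4, and by 2, 1 and 3 at day 0. No marker had a value of 0 on this scale. The macrophage marker Itgam stayed below 4 on every array, as did the thymic epithelial marker Foxn1 and the thymocyte marker Rag2. The other 6 of 7 thymic epithelial markers, among them Krt8, Krt18 and Epcam, had means above 4 in both groups. All 7 together averaged 6.53 and 5.98 at day 4 and 6.95, 6.38 and 6.63 at day 0. The gap between 3' and 5' actin control probe sets, which widens as RNA degrades, was 1.35 and 1.39 at day 4 and 1.59, 1.65 and 1.43 at day 0. The part of these shifts in the results below was not tested, and in such bulk samples fewer cells of a type and less RNA per cell cannot be told apart.

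The results turn on 2 genes whose probe sets passed the test, Slc19a2 and Slc2a9. Slc19a2 encodes a thiamine (vitamin B1) transporter and has been described as a direct target of the DNA damage regulator p53 in mouse cells. Slc2a9 encodes a carrier of urate with a sugar transporter fold and has been described as a p53 target in human cells. Their upstream sequences are shown because both genes were higher after irradiation, and each gives the 250 bases before the RefSeq gene start, 5' to 3' on the gene's strand (GRCm38.p6). For Slc19a2 (chr1:164248796-164249045, plus strand) the capitals mark the letters GGGCGG, the core of a GC box, searched on both strands. For Slc2a9 (chr5:38483386-38483635, minus strand) they mark a match to the p53 half-site consensus, which reads the same on both strands.
Slc19a2: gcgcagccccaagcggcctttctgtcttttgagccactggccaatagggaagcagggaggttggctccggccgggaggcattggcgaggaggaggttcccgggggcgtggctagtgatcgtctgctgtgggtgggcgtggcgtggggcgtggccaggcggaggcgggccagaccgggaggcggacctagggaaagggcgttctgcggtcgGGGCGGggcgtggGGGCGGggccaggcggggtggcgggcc
Slc2a9: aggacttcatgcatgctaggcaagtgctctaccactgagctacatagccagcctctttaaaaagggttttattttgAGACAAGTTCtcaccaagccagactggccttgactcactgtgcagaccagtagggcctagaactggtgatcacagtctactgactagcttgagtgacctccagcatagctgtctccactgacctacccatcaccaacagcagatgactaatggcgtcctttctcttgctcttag

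The Slc2a9 match began 174 bases before the gene start, and the Slc19a2 window held 0 matches to the p53 half-site. Of 32851 RefSeq promoter windows of this length, 7.13% held a p53 half-site. The GGGCGG letters occurred 2 times for Slc19a2 and 0 times for Slc2a9, and 32.7% of all windows held them. The 2 windows differed in base composition, with 73.2% G and C for Slc19a2 and 48.8% for Slc2a9, beside a median of 52.4% over all windows. Of the 61 member genes, 42 had a promoter in the RefSeq table, with 62 windows among them. A p53 half-site lay in 5 of these 62, those of Slc2a9, Slc16a4, Slc1a3, Slc6a12 and Slc7a7, a share of 8.06%. The GGGCGG letters lay in 28 of the 62, a share of 45.2%. These matches describe the letters of the windows and say nothing about binding.

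Of the 95 member probe sets, 52 passed the level filter, a log2 value above 4 on at least 2 arrays, and represented 32 genes. The other 43 lay between 1.90 and 4.19, and 42 of them were below 4 on every array. They left 29 genes without a tested probe set, among them the cystine carrier gene Slc7a11, the lactate exporter gene Slc16a3 and the thiamine transporter gene Slc19a3. Another 3 probe sets, both of Slc38a4 and one of Slc7a4, passed only through day 0 arrays. In limma, 2 of the 52 were called at an adjusted p under 0.05, both higher at day 4, and 0 were called lower. Over all 15065 probe sets tested, 1.39% were called, 0.717% higher and 0.677% lower. An unadjusted p under 0.05 was found for 16 members, 30.8%, against 19.4% of all probe sets tested.

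Most members leaned to higher values at day 4 without passing the test. The log2 change was above 0 for 37 tested members and below 0 for 15, with a median of 0.15, beside a median of -0.0044 over all probe sets tested. The 15 include the 3 probe sets that passed only through day 0 arrays. With no level filter, 58 of the 95 members were above 0, at a median of 0.061. The day 4 arrays lay above every day 0 array for 21 tested members, 40.4%, against 18.9% of all probe sets tested. They lay below for 4 members, 7.69%, against 20.7% of all, and the 2 directions together made up 39.6% of all probe sets tested. The classes differed in this description. All 11 tested sugar transporter probe sets, of 6 genes, had changes above 0, from 0.063 to 0.93, beside 49.2% of all probe sets tested. The 11 of the Slc38 family covered 5 genes, with most probe sets from Slc38a10, and had a median of -0.082. That Slc38 median includes both Slc38a4 probe sets, which passed only through day 0 arrays, so it rests in part on the filter. In the plot of changes by class, filled circles stand for the 2 called probe sets.

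**Figure D1:**
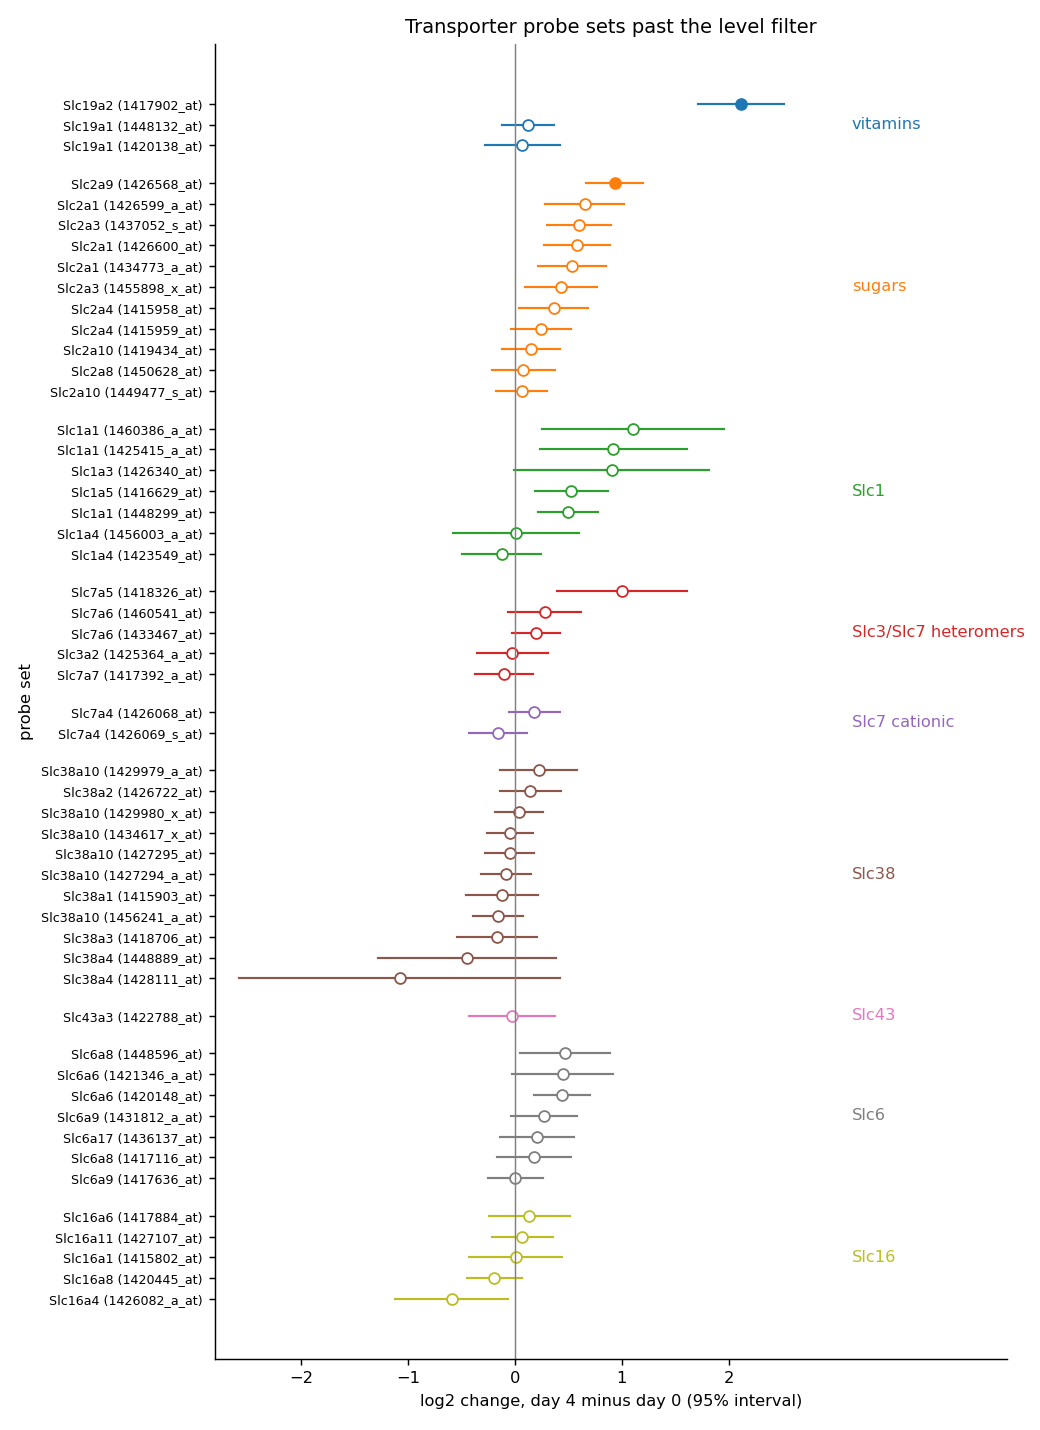
Log2 change (day 4 minus day 0, x axis) of the 52 transporter probe sets past the level filter (y axis, gene and probe set), grouped by class, with 95% intervals from the limma fit. Filled circles passed an adjusted p of 0.05, which are Slc19a2 at 2.11 and Slc2a9 at 0.93, and open circles did not.

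Of the vitamin transporters, Slc19a2 showed the largest change of all tested members. The Slc19a2 probe set 1417902_at read 8.04 and 7.69 at day 4, against 5.75, 5.95 and 5.55 at day 0. The lower day 4 array stood more than 1 log2 unit above the highest day 0 array. The gene rose by 2.11 ± 0.16 (SE), a 4.33-fold change with a 95% interval from 1.71 to 2.51 on the log2 scale (limma adjusted p = 0.00831, higher on 2 of 2 day 4 arrays). Without day 4 replicate 1 the change was 1.94 and no longer passed (adjusted p = 0.0829), while without any other single array it stayed called, with adjusted p between 0.0114 and 0.0426. The second Slc19a2 probe set, 1426117_a_at, was not tested because all its values were below 4. It read 2.93 and 2.55 at day 4 and 2.12, 2.32 and 2.45 at day 0, values too low to bear on the call.

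The folate carrier gene Slc19a1 had 2 tested probe sets, and neither passed. Its probe set 1448132_at read 5.43 and 5.37 at day 4 and 5.18, 5.35 and 5.29 at day 0. The change was 0.13 with a 95% interval from -0.12 to 0.37, and the other probe set, 1420138_at, gave 0.069 with overlapping groups, at 5.28 and 5.54 against 5.25, 5.55 and 5.23. Slc19a3, a second thiamine transporter, read 2.89 and 2.48 at day 4 and 2.93, 2.67 and 2.67 at day 0, below the filter throughout.

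Among genes that use thiamine, 9 of the 11 listed were tested and the limma fit called 0, none of them with an unadjusted p under 0.05 either. These encode thiamine-dependent enzymes such as pyruvate dehydrogenase (Pdha1) and transketolase (Tkt), and their median change was 0.071. The one with the largest absolute change was Thtpa, a thiamine triphosphatase, at -0.29 (adjusted p = 0.358). Of the folate genes, 5 of 12 were tested and 0 were called, while 2 had an unadjusted p under 0.05. Beside each such count on a gene list stand 1896 of 8940 genes in a limma fit with 1 probe set per gene. Folr2, a folate receptor known from macrophages, read 6.35 and 6.45 at day 4 and 5.29, 4.30 and 4.29 at day 0, a change of 1.78 that missed the threshold (adjusted p = 0.0644). The macrophage marker level was also higher at day 4, and its part in the Folr2 values was not tested.

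**Figure D2:**
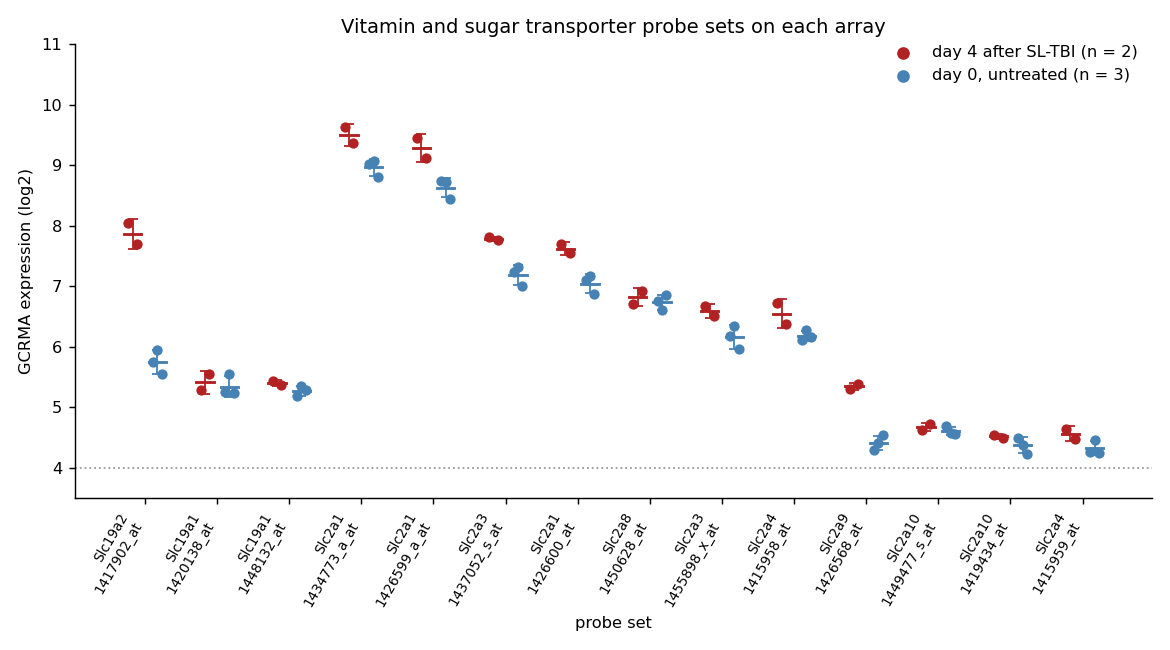
Log2 expression (y axis) of each tested vitamin and sugar transporter probe set (x axis) on the 2 day 4 arrays (red) and the 3 day 0 arrays (blue). Bars are group means with SD, and the dotted line is the filter level of 4. Slc19a2 and Slc2a9 stand widest apart, Slc2a1, Slc2a3 and Slc2a4 lie higher on both day 4 arrays, and Slc2a8 and Slc2a10 overlap.

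Facilitative sugar transporters of the Slc2 family carry glucose and related molecules down their gradient, and GLUT1, from Slc2a1, is the main glucose carrier of many endothelial cells. Of 15 probe sets of 8 genes, 11 probe sets of 6 genes were tested. The limma test called 1 higher, Slc2a9, and 0 lower, while 7 had an unadjusted p under 0.05, all with higher values at day 4. Both day 4 arrays lay above every day 0 array on 8 of the 11, which were the tested probe sets of Slc2a9, Slc2a1, Slc2a3 and Slc2a4, beside the 18.9% of all probe sets tested.

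Slc2a9 (1426568_at) read 5.31 and 5.38 at day 4, against 4.29, 4.41 and 4.53 at day 0. The groups did not overlap and the day 4 arrays differed little from each other. The rise was 0.93 ± 0.11 (SE), or 1.91-fold (limma adjusted p = 0.0253). The call did not hold without any one array: leaving each out gave changes of 0.87 to 0.99 and adjusted p of 0.0537 to 0.123. Array weights also ended it (0.93, adjusted p = 0.0649).

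Slc2a1 was read by 3 probe sets, and all had both day 4 arrays above all day 0 arrays. Probe set 1434773_a_at read 9.63 and 9.37 at day 4 and 9.02, 9.07 and 8.81 at day 0. The second, 1426599_a_at, read 9.45 and 9.11 against 8.73, 8.72 and 8.44. The last, 1426600_at, read 7.69 and 7.55 against 7.10, 7.17 and 6.86. On each of them day 0 replicate 3 was the lowest array and day 4 replicate 1 the highest. The changes were 0.54, 0.65 and 0.58, which is 1.45 to 1.57-fold, and the adjusted p of 0.116, 0.103 and 0.0918 missed the threshold. Their 95% intervals lay between 0.22 and 1.02. The probe sets thus gave close estimates, but they measure the same transcripts.

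Slc2a3 encodes GLUT3, a glucose carrier known from neurons and white blood cells. Its probe set 1437052_s_at read 7.81 and 7.75 at day 4 and 7.23, 7.31 and 7.0 at day 0. Both day 4 arrays lay above every day 0 array, with a change of 0.60 (adjusted p = 0.0842). Probe set 1455898_x_at read 6.67 and 6.51 against 6.18, 6.34 and 5.96, a change of 0.43 (adjusted p = 0.178). Suffixes with s or x mark probes that can bind other transcripts too. A further 2 probe sets of Slc2a3 were below the filter on all arrays.

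Slc2a4, the insulin-responsive GLUT4, had changes of 0.36 and 0.24 on its 2 probe sets, with the day 4 arrays above day 0 on both and adjusted p of 0.217 and 0.308. Slc2a8, a sugar carrier of inner membranes, read 6.71 and 6.92 at day 4 and 6.75, 6.60 and 6.85 at day 0. Its 95% interval ran from -0.22 to 0.38. Both Slc2a10 probe sets also overlapped between the groups, with changes of 0.063 and 0.15. Slc2a2, the GLUT2 of liver, and Slc2a5, a fructose carrier, lay below 4 on every array.

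Of 19 listed genes of glycolysis, which breaks down the glucose these carriers bring in, 13 were tested and limma called 0, while 1 had an unadjusted p under 0.05. Their median change was 0.11. The exception was Hk2, hexokinase 2, which traps glucose inside the cell. It read 6.93 and 5.94 at day 4, against 5.41, 5.22 and 5.32 at day 0. The day 4 arrays lay above day 0 but nearly 1 log2 unit apart from each other, and the change of 1.11 did not pass (adjusted p = 0.119). Txnip, which restrains glucose uptake, was among the partners of transporters, of which 4 of 8 listed were tested, limma called 0 and 1 had an unadjusted p under 0.05. It read 11.46 and 12.17 at day 4 and 12.13, 12.09 and 12.07 at day 0. All 4 partner genes had changes below 0, led by Emb, a chaperone of lactate carriers, at -0.42 (adjusted p = 0.233), and Bsg, its relative basigin, had -0.21.

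The Slc1 family holds glutamate carriers (Slc1a1, Slc1a2, Slc1a3, Slc1a6) and exchangers of neutral amino acids (Slc1a4, Slc1a5). Of 12 probe sets of 6 genes, 7 were tested, and limma called 0, while 4 had an unadjusted p under 0.05, all with higher values at day 4. The median change was 0.53. For Slc1a1, the glutamate and aspartate carrier EAAT3, 3 of 3 probe sets had the day 4 arrays above day 0, beside 18.9% of all probe sets tested. These 3 read the same gene and are not independent.

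The Slc1a1 probe set 1448299_at read 8.20 and 7.98 at day 4 and 7.58, 7.70 and 7.5 at day 0, a change of 0.50 (adjusted p = 0.107). The other Slc1a1 probe sets gave 0.92 and 1.11 (adjusted p = 0.166 and 0.172). On these the day 4 arrays were far apart, at 7.68 and 6.69 on 1425415_a_at, against 6.14, 6.23 and 6.42 at day 0. On 1460386_a_at they were 6.12 and 5.0, against 4.10, 4.58 and 4.69. Replicate 1 carried the larger part. Without day 4 replicate 2 the change of 1425415_a_at was 1.42 and passed the threshold (adjusted p = 0.0441), and without day 4 replicate 1 it was 0.43.

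Slc1a5, the glutamine exchanger ASCT2, read 6.74 and 6.32 at day 4 and 5.97, 6.0 and 6.04 at day 0. Its day 0 arrays agree closely and both day 4 arrays were higher, and the change was 0.53 (adjusted p = 0.13). Slc1a3, a glutamate carrier best known from glial cells, read 5.58 and 4.40 at day 4, against 4.51, 3.94 and 3.81 at day 0. Its groups overlapped, since day 4 replicate 2 was below day 0 replicate 1 (change 0.90, adjusted p = 0.261). Slc1a4 overlapped on both tested probe sets, with changes of 0.0073 and -0.12.

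Heteromeric amino acid transporters pair a heavy subunit, Slc3a2 (4F2hc) or Slc3a1 (rBAT), with a light subunit of the Slc7 family that does the transport. Of 13 probe sets of 11 genes, 5 were tested, and limma called 0 and 1 had an unadjusted p under 0.05. That one was Slc7a5, the LAT1 light subunit for leucine and other large neutral amino acids. It read 7.39 and 6.58 at day 4, against 5.89, 6.21 and 5.85 at day 0. Both day 4 arrays were above day 0, replicate 1 by more than replicate 2. The change of 1.0 ± 0.25 (SE) did not pass (adjusted p = 0.119), and it was 0.60 without day 4 replicate 1 and 1.40 without day 4 replicate 2.

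Its partner Slc3a2 read 9.03 and 9.42 at day 4, against 9.18, 9.27 and 9.29 at day 0. The day 4 arrays lay on either side of the day 0 arrays, and the interval of the change was -0.36 to 0.31. Without day 4 replicate 1 its sign turned, to 0.17. The light subunits Slc7a6 and Slc7a7 exchange cationic for neutral amino acids. Slc7a6 had changes of 0.28 and 0.20 (adjusted p = 0.326 and 0.295). Slc7a7, which macrophages are known to use, read 6.37 and 6.47 at day 4 and 6.65, 6.50 and 6.41 at day 0. Its groups overlapped, with a change of -0.10 (adjusted p = 0.634).

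Slc7a11, which imports cystine for glutathione synthesis, read 2.62 and 2.62 at day 4 and 2.68, 2.70 and 2.72 at day 0, which is the low end of the scale. Slc3a1, Slc7a8, Slc7a9, Slc7a10, Slc7a12 and Slc7a13 were below 4 on all arrays as well. Of the cationic amino acid transporters, the arginine carriers Slc7a1, Slc7a2 and Slc7a3 also stayed below 4. Slc7a4, the remaining member, had 2 tested probe sets. On 1426068_at it read 5.99 and 6.05 at day 4, against 5.86, 5.75 and 5.90 at day 0, a change of 0.18. The other, 1426069_s_at, read 3.71 and 3.91 against 4.01, 3.87 and 4.03, a change of -0.16. This probe set entered the test only through day 0 arrays, so its direction does not count as a result. The limma test called 0 of these 2, and 0 had an unadjusted p under 0.05.

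Of 18 listed genes of the amino acid response and serine synthesis, which cells turn on when amino acids run short, all 18 were tested. Limma called 1 higher and 0 lower, and over all genes, each by its probe set of highest mean, 1.68% were called, 0.884% higher and 0.794% lower. An unadjusted p under 0.05 was found for 6, beside 1896 of 8940 genes in the fit with 1 probe set per gene. The median change was 0.11. The called gene was Sesn2, a leucine sensor that is also a known p53 target. Sesn2 read 7.41 and 7.19 at day 4, against 5.43, 5.43 and 5.93 at day 0, a rise of 1.71 ± 0.18 (SE, adjusted p = 0.0194). Atf4, the transcription factor of this response, changed by 0.33 and did not pass (adjusted p = 0.193). Of 7 tested genes of glutamine and glutamate metabolism limma called 0, while 3 had an unadjusted p under 0.05, and the largest change was 0.83 for Gpt2, an alanine transaminase (adjusted p = 0.166).

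The Slc38 family carries glutamine and other small neutral amino acids. Of 13 probe sets of 6 genes, 11 were tested, and limma called 0, while 0 had an unadjusted p under 0.05. Slc38a2, the glutamine and alanine carrier SNAT2, read 10.89 and 10.65 at day 4 and 10.54, 10.72 and 10.61 at day 0. Its groups overlapped and its interval ran from -0.14 to 0.43. Slc38a10 had 6 tested probe sets with changes from -0.16 to 0.22. On 1456241_a_at it read 8.35 and 8.27 at day 4, against 8.40, 8.51 and 8.49 at day 0, which puts both day 4 arrays below by a small margin (change -0.16, adjusted p = 0.41). Slc38a1 and Slc38a3 overlapped, with changes of -0.12 and -0.17.

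Slc38a4, a carrier of neutral and cationic amino acids known from liver, is singled out after its values were seen. Its probe set 1428111_at read 2.91 and 3.86 at day 4, against 5.26, 4.88 and 3.26 at day 0. Day 0 replicate 3 fell among the day 4 values, so the groups overlapped (change -1.08 ± 0.61 SE, adjusted p = 0.382). Probe set 1448889_at gave -0.45. Both entered the test only through day 0 arrays, the group in which they were higher, so neither direction counts as a result.

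Slc43a3, the only gene of the Slc43 family among the probe sets described here, is described as a purine nucleobase carrier. It read 9.52 and 10.02 at day 4 and 9.84, 9.69 and 9.84 at day 0. Day 4 replicate 1 was the lowest of the 5 arrays and replicate 2 the highest, while on Slc1a1 and Slc7a5 replicate 1 was above replicate 2. The sign of its change of -0.022 turned in 4 alternatives, among them without day 4 replicate 1 (0.23).

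The Slc6 family drives uptake of taurine, creatine, glycine, monoamines and other solutes with sodium and chloride. Of 20 probe sets of 15 genes, 7 probe sets of 4 genes were tested, and limma called 0, while 2 had an unadjusted p under 0.05, both with higher values at day 4. All 7 changes were above 0, from 0.0043 to 0.47, beside 49.2% of all probe sets tested. Slc6a6, the taurine carrier, read 8.33 and 7.98 at day 4, against 7.39, 7.81 and 7.92 at day 0 on 1421346_a_at. The groups came close but did not overlap (change 0.45, adjusted p = 0.273). Its probe set 1420148_at separated them more clearly, at 4.77 and 4.67 against 4.21, 4.22 and 4.41, with a change of 0.44 (adjusted p = 0.117).

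Slc6a8, the creatine carrier, gave 0.47 on 1448596_at, which read 6.38 and 5.94 at day 4 and 5.71, 5.51 and 5.86 at day 0. On its other probe set, 1417116_at, the groups overlapped and the change was 0.18. Slc6a9, a glycine carrier, had 0.27 and 0.0043 on its 2 probe sets, and Slc6a17 had 0.21. Monoamine carriers Slc6a2, Slc6a3 and Slc6a4, the GABA carriers Slc6a12 and Slc6a13 and 6 further genes stayed below 4 on all arrays.

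**Figure D3:**
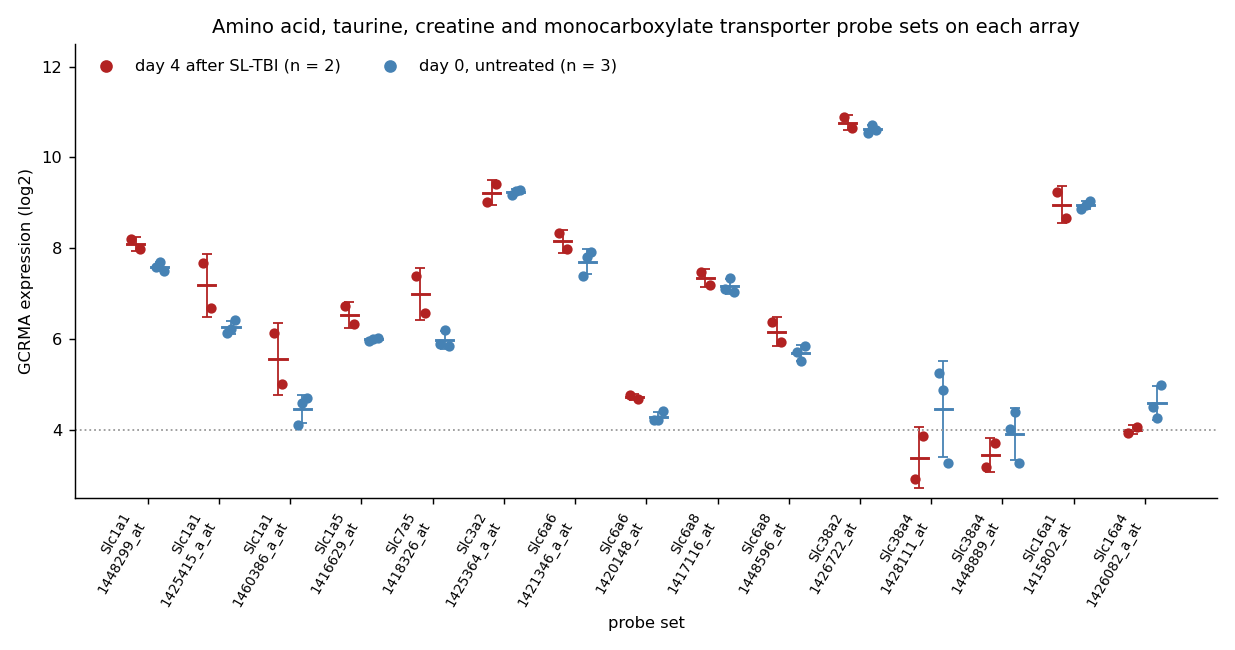
Log2 expression (y axis) of selected probe sets for carriers of amino acids, taurine, creatine and monocarboxylates (x axis) on the 2 day 4 arrays (red) and the 3 day 0 arrays (blue). Bars are group means with SD, and the dotted line is the filter level of 4. On Slc1a1 and Slc7a5 both day 4 arrays lie above day 0 with a wide gap between them, while Slc3a2, Slc38a2 and Slc16a1 overlap.

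Monocarboxylate transporters of the Slc16 family carry lactate, pyruvate and related acids. Of 7 probe sets, 1 per gene, 5 were tested, and limma called 0, while 1 had an unadjusted p under 0.05. Slc16a1, the lactate and pyruvate carrier MCT1, read 9.24 and 8.67 at day 4 and 8.86, 8.95 and 9.03 at day 0. The day 0 arrays fell between the day 4 arrays, so the change of 0.0079 (95% interval -0.43 to 0.44) had no stable sign. It was -0.0022 after quantile normalization and -0.017 after median centring.

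Slc16a4, a family member of less known substrate, had the largest decrease of its class among members whose arrays did not overlap. It read 3.93 and 4.07 at day 4, against 4.51, 4.27 and 5.0 at day 0. These values lie close to the filter level, and the change of -0.59 did not pass (adjusted p = 0.22). Slc16a8 had both day 4 arrays below day 0 as well, at -0.19 (adjusted p = 0.368). Slc16a6 and Slc16a11 overlapped, and Slc16a3 and Slc16a7 were below 4 on all arrays.

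The 2 day 4 arrays did not give the transporters equally. Replicate 1 was above replicate 2 on 33 of 52 tested members, 63.5%, against 45.9% of all probe sets tested. The gap between them exceeded 0.5 on 9 members, 17.3%, against 11.4% of all. Thymic epithelial markers also averaged higher on replicate 1, at 6.53 against 5.98, while endothelial markers averaged lower, at 9.90 against 10.14. The part of such cell type differences in the gaps was not tested. Without replicate 1 the change of Slc19a2 was 1.94, while those of Slc1a1 (1460386_a_at) and Slc7a5 shrank to 0.55 and 0.60. No fit with 1 array left out turned the sign of Slc19a2, Slc2a9, Slc2a1, Slc2a3, Slc1a1 or Slc7a5. None could, because both day 4 arrays lay above every day 0 array on each tested probe set of these genes.

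**Figure D4:**
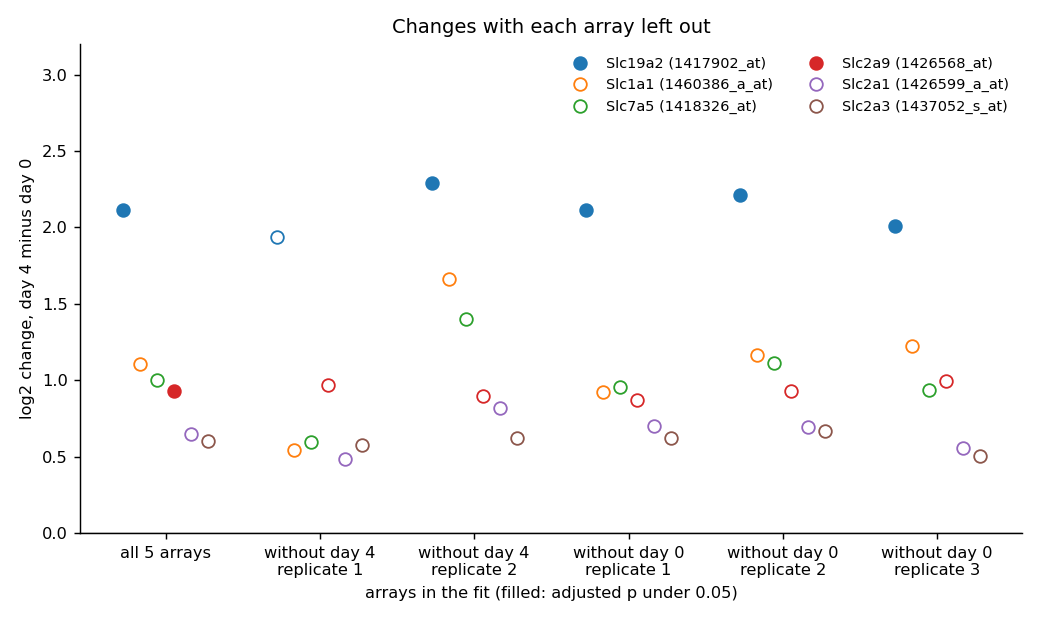
Log2 change (day 4 minus day 0, y axis) of 6 probe sets with all 5 arrays and with each array left out in turn (x axis). Each was picked as the tested probe set of largest change of its gene. Filled circles have an adjusted p under 0.05. Slc19a2 stays between 1.94 and 2.29 and is called in 5 of the 6 fits, and Slc2a9 is called only with all 5 arrays.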

How the data were processed

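The authors deposited 1 log2 value per probe set and array, and the submitters' processing notes name GCRMA as the tool. The sources used here give neither its version nor which arrays were run together. The method corrects background from probe sequences, brings arrays to a common distribution and summarizes probes, which hides changes shared by most genes and makes low values background estimates. No detection calls or scan dates were used here. Values lay between 1.57 and 14.4, and the number of arrays limits the precision.

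Control probe sets (64) were left out. Probe sets with a log2 value above 4 on at least 2 arrays, 15065 in all, entered a two-sided limma fit (lmFit, eBayes; limma 3.58.1, R 4.3.3) without covariates, on 3 residual and 3.09 prior degrees of freedom. P-values were Benjamini-Hochberg adjusted over all of them, and calls had an adjusted p under 0.05. Errors are SE unless marked SD. The fit used probe sets because the members are probe sets. Because mice were pooled for each array, the p-values reflect only the spread between pools, which may be technical in part. The code was tested on simulated data. RefSeq held all 95 member Entrez identifiers with unchanged symbols, and gave the promoters.

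Members, substrate classes and lists were chosen with earlier results of these data known. Values are given per array for called members, for 10 fixed carriers (Slc19a1, Slc19a2, Slc2a1, Slc2a3, Slc3a2, Slc7a5, Slc7a11, Slc16a1, Slc38a2, Slc1a5) and, per class, for the member of highest mean and the largest rise and fall without overlap. Of each pathway list, the called members and that of largest absolute change are named. Other members named were picked after their values were seen. Genes on lists were represented by their tested probe set of highest mean. Alternatives were quantile normalization, median centring, no level filter or one at 6, genes in place of probe sets, an intensity trend with robust fitting, array weights, replicate numbers as blocks, other thresholds, and leaving out each array.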

Additional observations from a re-analysis of the deposited data

How the results depend on the processing

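The 2 transporter calls depended on few arrays: leaving out 1 array gave 0 to 2 calls, and the 2 without day 4 replicate 2 were Slc19a2 and Slc1a1. Array weights gave 1, a level filter at 6 gave 1 (Slc2a9 lies below it), an adjusted p under 0.01 gave 1 and one under 0.10 gave 4. Over all probe sets, calls numbered 210, against 15 (without day 4 replicate 1) to 165 (without day 4 replicate 2) with 1 array left out, among them 32 without day 0 replicate 3, 53 with array weights, 23 at an adjusted p under 0.01 and 657 under 0.10. The split of 108 higher and 102 lower was 128 and 37 without day 4 replicate 2 and 52 and 111 without day 0 replicate 2. The transporter median of 0.15 became 0.061 without a filter, 0.36 with a filter at 6, 0.11 with 1 probe set per gene and 0.14 to 0.21 with 1 array left out. Of the pathway genes 1 was called, against 0 to 2 with 1 array left out, 0 with array weights or an adjusted p under 0.01, and 2 with 1 probe set or the mean per gene or under 0.10. With 1 day 4 array left out, the lone array is assumed to vary like the others. The labels do not say that replicate numbers pair arrays. Same-numbered arrays correlated in their deviations at 0.20 and 0.084, but day 4 replicate 2 correlated more with day 0 replicate 3, at 0.14. The deviations of the 2 day 4 arrays mirror each other, so their correlations are the same values with opposite signs. They do not settle a pairing. With the replicate number as a block, 401 probe sets, 3 transporters and 2 pathway genes were called. The added transporter, Slc38a4 1428111_at (-1.68, adjusted p = 0.0461), entered the test only through day 0 arrays, and that fit takes its change from the numbers that both groups share, so this call is not counted as a result. For 31 named transporter probe sets, which do not include Slc38a4, 392 pairs of a probe set and an alternative were compared: 384 kept their side of the threshold, 7 lost a call and 1 gained one, and 10 of those that kept it changed sign without being called. The causes were not tested. Low signal limits the 43 members below the filter.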

Other observations

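Among the members below the level filter, some stood apart by group, as values without a test. Slc6a20a, a carrier of proline and related imino acids, read 2.02 and 2.05 at day 4, against 3.52, 2.78 and 2.95 at day 0, the widest such gap. The arginine carrier gene Slc7a2 read 3.62 and 3.62 at day 4, against 3.41, 3.46 and 3.01 at day 0 on 1422648_at. Of the 215 values of untested members, 27 (12.6%) were held exactly by another probe set on the same array, as were 20 of 260 values (7.69%) of tested members.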
